A study of Mus musculus with 2 samples.

Results

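Long intergenic noncoding RNAs (lincRNAs) are transcripts without a recognised coding sequence whose genes were annotated as lying apart from protein-coding genes. Many are transcribed by RNA polymerase II, spliced and polyadenylated, and several act on chromatin, on microRNAs or on RNA-binding proteins, while others serve mainly as host transcripts from whose introns small nucleolar RNAs (snoRNAs) or microRNAs are cut. In the limb bud the best studied examples sit beside developmental regulators, such as Hottip at the distal end of the HoxA cluster.

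Expressed lincRNA genes were defined as genes that GENCODE mouse release M21 types as lincRNA, matched by gene ID, and whose level was at least 5 TPM in both libraries. TPM is an estimate of a transcript's share of all transcripts that corrects for length. This level was reached by 69 of the 2777 lincRNA genes that the authors listed. The rule left out by name 6 of these, Malat1, H19, Meg3, Mirg, Gm42418 and Gm26917, so that 63 genes remained, or 2.27% of all lincRNA genes. Members were thus chosen by their TPM in these same libraries, so their levels are a description and carry no test. Neat1, also named in the rule, was below the threshold and was left out of the comparison set as well. Of the other 2707 lincRNA genes below the threshold, 1793 had no count in either library and 122 reached 1 TPM in both. By comparison, 9611 of 21474 protein-coding genes (44.8%) reached 5 TPM in both libraries.

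The libraries were made from total RNA of limb at embryonic day 11.5, from healthy B6NCrl mouse embryos of both sexes. The limbs of 109 embryos were pooled for replicate 1 and those of 88 for replicate 2, with 10 ng of RNA longer than 200 nt in each library. There was no treatment, genotype or other tissue, so the design holds 1 group and no contrast other than that between its 2 pools. Because whole limb was used, fewer cells of a type and less RNA per cell cannot be told apart. The tables held 40.65 M and 32.30 M expected counts on genes in replicates 1 and 2, and spike-in RNAs took 5.368% and 7.920% of all counts. All 6 markers of limb mesenchyme were above 1 TPM (24.6 for Tbx5 to 174 for Msx1), as were all 4 markers each of limb ectoderm, blood, endothelium and macrophages, with Hbb-y, an embryonic globin, at 5620 TPM. Of the markers of neurons and spinal cord 2 of 6 passed 1 TPM, and of those of liver and yolk sac 2 of 4. Which of these cell types supplied the lincRNAs was not tested.

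The 63 genes were mostly low. Their median level in TPM was 13.14 in replicate 1 against 12.64 in replicate 2, beside 29.09 and 28.02 TPM for the protein-coding genes above the same threshold. Levels ran from 5.07 to 265.68 TPM in the first pool and from 5.06 to 239.57 TPM in the other. In both libraries 38 genes were at 10 TPM or more, 16 at 20 or more, 8 at 50 or more and 2 at 100 or more. The 10 highest genes held 56.7% and 57.2% of the summed TPM. Of the counts on genes, all 63 together took 0.1462% in replicate 1, with a Wilson interval at 95% of 0.145 to 0.1474. Their share was 0.1575% in replicate 2, with an interval of 0.1561 to 0.1588. Both intervals cover counting error only.

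**Figure D1:**
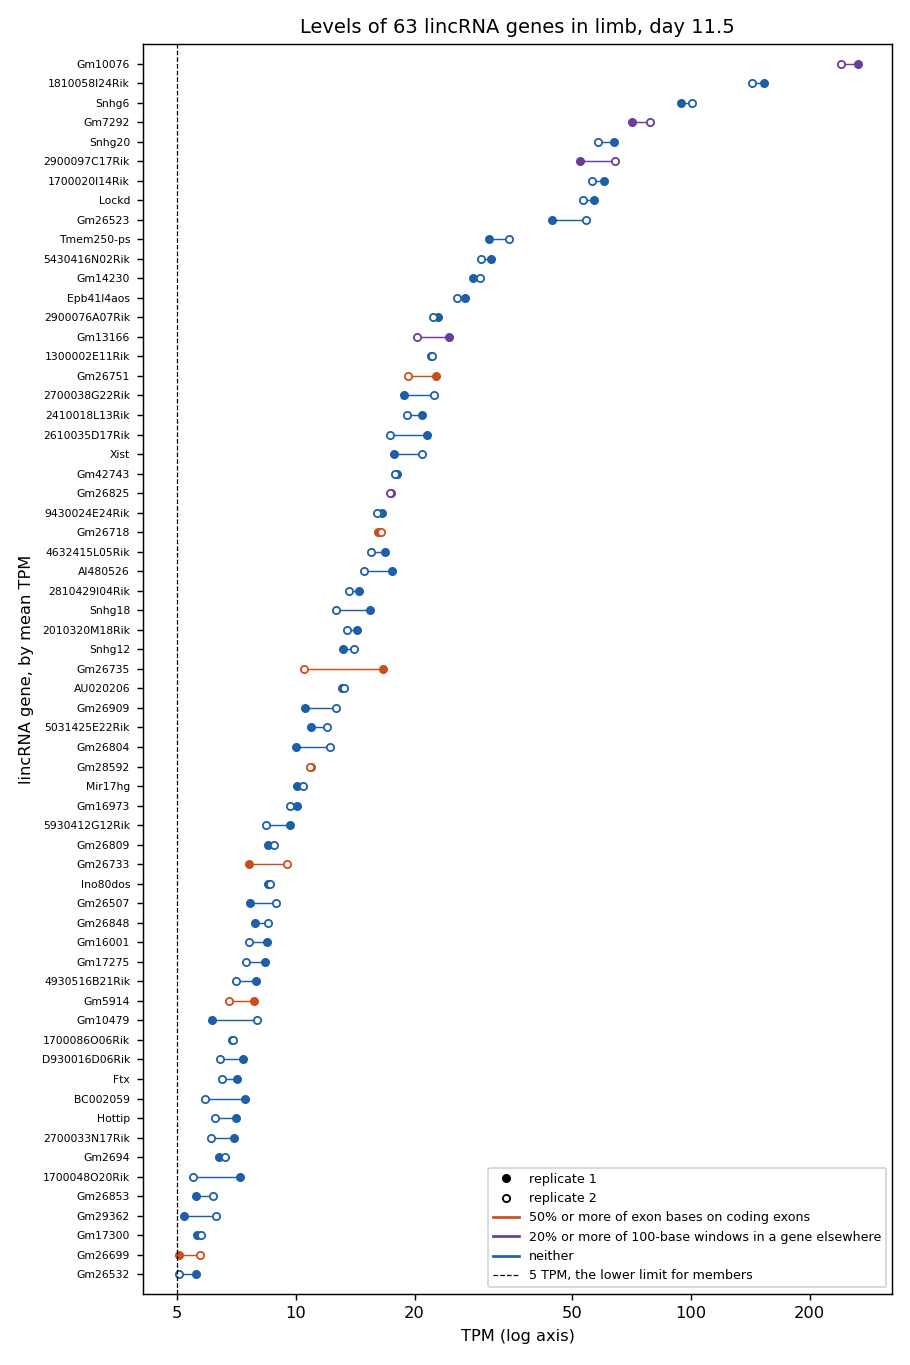
Level of each of the 63 genes in replicate 1 (filled) and replicate 2 (open), in TPM on a log axis, ordered by mean, with a dashed line at 5 TPM. Colour marks genes that share much of their sequence with another gene. Only Gm10076 and 1810058I24Rik lie above 100 TPM in both libraries, and the pair of points is widest for Gm26735.

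The pools gave similar levels. The median coefficient of variation between them was 7.04%, 44 genes were below 10%, and only Gm26735 was above 20%, at 32.3%. TPM was higher in replicate 1 for 35 genes and in replicate 2 for 28. However, the TPM total includes spike-ins, and entries other than genes took 11.8% of it in replicate 1 and 17.2% in replicate 2. This lowers the TPM of genes more in replicate 2. By counts scaled over genes, the median log2 ratio of the 62 genes tested, replicate 2 over replicate 1, was 0.0079. Neither the 35 and 28 nor the median TPM values above therefore rank the pools. Depth was thin for a few genes, since 6 had under 100 counts in a library. The smallest, Gm29362 (133 nt, within the body of Alkbh1), rested on 5 counts in each library, and its deposited TPM bounds in replicate 1 ran from 0.000319 to 8.50. The deposited lower bound was itself at 5 TPM or more in both libraries for 54 of the 63 genes.

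At the threshold, the last genes inside were Gm26532 at 5.59 and 5.06 TPM, Gm26699 at 5.07 and 5.72 TPM, and Gm29362 at 5.22 and 6.29 TPM in replicates 1 and 2. The nearest outside were Dubr at 4.87 and 4.73 TPM, Fam120aos at 4.84 and 4.68 TPM, and Gm21814 at 7.58 and 4.45 TPM. Both sides of the limit thus hold genes whose pools differ by more than the gap between them.

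The highest gene was Gm10076, a single-exon gene of 384 nt at chr14:105681828-105682211 (GRCm38, plus strand). It measured 265.68 TPM in replicate 1 and 239.57 TPM in replicate 2, from 2133 and 1597 expected counts. RefSeq lists it as a pseudogene, and 383 nt of it aligned to the transcript of Rpl41, which encodes a protein of the large ribosomal subunit, with 99.478% identity. Rpl41 itself stood at 3208.17 and 2980.15 TPM, 12.2 times the level of Gm10076, and 29.47% of the 100-base windows of Gm10076 occur letter for letter in it. How the estimated counts were divided between these copies was not tested.

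The next gene, 1810058I24Rik (chr6:35252654-35263496, plus strand), measured 152.93 and 143.11 TPM. RefSeq types this gene as protein-coding, and it is known to encode Stmp1, a short protein of the mitochondrial membrane. The longest open reading frame of its main transcript, counted from ATG to a stop, was 68 codons, which is also the median over the 63 genes. Whether this frame is the one that encodes Stmp1 was not checked.

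Norad and Cyrano, listed under older names, were the sixth and the seventh by mean TPM, after Snhg6, Gm7292 and Snhg20. Norad (2900097C17Rik, chr2:156388065-156392979, minus strand) is a conserved cytoplasmic RNA known for binding Pumilio proteins, which recognise UGUA-based elements. It measured 52.43 TPM in replicate 1 and 64.41 TPM in replicate 2. Gm7292 (chr6:117716342-117718868, plus strand), a single-exon gene, measured 71.04 and 78.97 TPM and shares 59.72% of its 100-base windows with Norad, while 30.11% of the Norad windows occur in Gm7292. Reads from the shared windows cannot be told apart by sequence alone. The windows come from the 4915 nt of Norad in M21, but the deposited TPM used GENCODE M4, where its transcript has 1149 nt. Gm7292 was at its full 2527 nt there. Whether reads from the rest of Norad were counted on Gm7292 was not tested, so which of the 2 is higher is not settled.

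The letters TGTANATA, where N is any base, were counted on the transcript strand. They occurred 11 times in the 4915 nt of Norad and 9 times in the 2527 nt of Gm7292, or 2.24 and 3.56 times per kb, against 0.15 per kb over 2777 lincRNA transcripts. No other lincRNA of the 2777 had 9 or more. Among the 63 genes 18 (28.6%) had at least 1 match, against 16.9% of all lincRNA transcripts. These shares were not adjusted for length, and longer transcripts have more room for a match. The median transcript searched was 1375 nt for the 63 and 1001 nt for the lincRNAs below the threshold. The first 100 bases of each transcript that hold the largest number of matches are shown to compare the pair, with the matches in capitals, from chr2:156390522-156390621 (minus strand) and chr6:117718674-117718773 (plus strand) of GRCm38.
2900097C17Rik: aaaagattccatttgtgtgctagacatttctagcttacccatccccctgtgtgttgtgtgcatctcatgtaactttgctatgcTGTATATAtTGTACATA
Gm7292: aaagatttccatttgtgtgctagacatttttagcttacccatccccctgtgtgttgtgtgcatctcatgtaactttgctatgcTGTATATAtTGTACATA
Each stretch ends in 2 matches with a single base between them. A match of letters is not evidence that a protein was bound.

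Cyrano (1700020I14Rik, also Oip5os1, chr2:119594297-119607502, plus strand) is known for a site that pairs extensively with the microRNA miR-7 and directs its decay. It measured 60.48 TPM in replicate 1 and 56.11 TPM in replicate 2. Its transcript of 8300 nt was the leading form of 2, with 52.78% and 58.74% of the gene's TPM. The seed match GTCTTCC, searched on the transcript strand, occurred 2 times in it. The first line below is mature miR-7a from RefSeq (GRCm38.p6) with its seed, bases 2 to 8, in capitals, and the second is the site at transcript bases 2936 to 2959 with the seed match in capitals.
mmu-miR-7a-5p: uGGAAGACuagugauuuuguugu
1700020I14Rik site: caacaaaatcaccaatGTCTTCCa
Upstream of the seed match the site holds an unbroken run of 12 bases complementary to the 3′ part of the microRNA. At the other match, at bases 746 to 769, the longest such run was 3 bases. GTCTTCC was present in 11 of the 63 genes' transcripts (17.5%), against 9.83% of all lincRNA transcripts, so the seed match alone did not set Cyrano apart. As with TGTANATA, these shares were not adjusted for the greater transcript length of the 63.

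Hosts of small RNAs made up 9 of the 63 genes (14.3%), against 48 of the 2707 lincRNAs below the threshold (1.77%). Within them the annotation places 21 small RNA gene entries on the same strand, 11 snoRNAs or their Cajal body relatives (scaRNAs) and 10 microRNAs. Some entries share bases, so there are fewer distinct small RNAs. Snora16a is entered more than once in Snhg12, Mir1839 is entered as a scaRNA and as a microRNA, and Mir6516 overlaps Gm26083. The snoRNAs and scaRNAs guide chemical modification of ribosomal and spliceosomal RNA. The highest hosts were Snhg6 (Snord87), at 94.50 and 100.87 TPM, and Snhg20 (the scaRNA Gm26083 and Mir6516), at 64.12 and 58.32 TPM. Epb41l4aos followed with 26.90 and 25.66 TPM, 2900076A07Rik (Mir1839) with 22.98 and 22.20 TPM, and 2700038G22Rik (Snord93) with 18.85 and 22.33 TPM. Snhg18 (Snord123) stood at 15.38 and 12.64 TPM and Snhg12, which holds Snora16a, Snora44, Snora61 and Snord99, at 13.14 and 14.06 TPM. The order of these hosts was the same in both libraries except for 2 exchanges in replicate 2, 2700038G22Rik with 2900076A07Rik and Snhg12 with Snhg18.

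The small RNAs themselves were not measured in any useful way. RNA under 200 nt was removed. In addition, the deposited effective length, the length open to counting, was 0 for several of them, such as Snord87 and Mir17. Such genes could receive no count whatever RNA was present. Of the 21 entries 18 were listed in the tables and 3 had a count above 0, with Gm26083 the highest at 14.5 and 4.99 expected counts. The host levels therefore describe the spliced or precursor host RNA and give no level of the small RNA cut from it.

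Mir17hg, the primary transcript of the miR-17 to miR-92 cluster, measured 10.09 and 10.46 TPM. Its 6 microRNAs fall into 4 groups by seed, and the mature RefSeq sequences (GRCm38.p6) are shown with bases 2 to 8 in capitals, since the seed decides which messages a microRNA pairs with.
mmu-miR-17-5p: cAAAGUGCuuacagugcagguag
mmu-miR-20a-5p: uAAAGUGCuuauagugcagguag
mmu-miR-18a-5p: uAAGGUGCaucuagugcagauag
mmu-miR-19a-3p: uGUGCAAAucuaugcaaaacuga
mmu-miR-19b-3p: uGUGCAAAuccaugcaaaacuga
mmu-miR-92a-3p: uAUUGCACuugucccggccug
The miR-17 and miR-20a seeds are identical, as are those of miR-19a and miR-19b. Ftx, a gene of the X inactivation centre that holds Mir421 and Mir374b, stood at 7.12 and 6.5 TPM.

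A list of 84 names, mostly of well-known long noncoding RNAs and with several aliases, matched 66 gene entries in the tables. Dlx6os1 was matched more than once, and Ptprd is typed protein-coding. Of the 66 entries 27 were typed lincRNA, and 13 of those were among the 63. Besides those already described they were Lockd, Xist, Hottip and Gm2694. Xist, the RNA that coats the inactive X chromosome, was the longest of the 63 (17946 nt of exon) and measured 17.69 and 20.88 TPM in replicates 1 and 2, both pools of males and females. Lockd, which lies 3579 nt downstream of the cell cycle inhibitor gene Cdkn1b on the same strand, measured 57.06 and 53.24 TPM. Gm2694, on the strand opposite Cbln1, was near the threshold at 6.40 and 6.62 TPM. Several other well-known RNAs were higher than most of the 63 but carry other gene types, such as Gas5 (a snoRNA host typed processed transcript) at 504.46 and 481.42 TPM, Hoxa11os at 282.50 and 278.73 TPM and Tug1 (typed antisense) at 171.35 and 174.05 TPM. Hotair, typed lincRNA and transcribed from the HoxC cluster, was below the threshold at 2.48 and 2.33 TPM.

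Genes beside limb regulators came next. For 5 of the 63 (7.94%) the nearest protein-coding gene was on a list of 151 limb development and Hox genes, against 2.77% of the lincRNAs below the threshold. Gm26523 lies wholly inside an intron of Prrx1, the homeobox gene of limb mesenchyme, on the same strand and 8775 nt from its nearest exon (chr1:163301790-163303620, minus strand). It measured 44.55 TPM in replicate 1 and 54.45 TPM in replicate 2, against 151.71 and 146.78 TPM for Prrx1. RNA from this gene and RNA from the intron around it come from the same bases of the same strand and cannot be told apart.

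Hottip (chr6:52262775-52267603, plus strand) starts 1895 nt from the start of Hoxa13, a gene of the distal limb, and runs away from it. It measured 7.06 and 6.25 TPM, and Hoxa13 19.87 and 22.23 TPM, so that Hottip stood at 31.6% of its neighbour. The gene 2700033N17Rik lies 379 nt upstream of Meis2, a homeobox gene of the proximal limb, on the same strand. Its levels were 6.96 and 6.11 TPM, beside 40.63 and 39.91 TPM for Meis2. For Gm10076, already described, the neighbour was Spry2, an inhibitor of FGF signalling, 209736 nt away at 56.46 and 54.41 TPM.

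Within 500 kb of a listed limb gene lay 9 of the 63 (14.3%), against 6.69% of the lincRNAs below the threshold. The other 4 were 2610035D17Rik, 256135 nt from the cartilage regulator Sox9, 9430024E24Rik, 75850 nt from the dorsal limb gene Lmx1b, Norad, 442698 nt from the joint gene Gdf5, and 1700086O06Rik, 335682 nt from Spry4. 2610035D17Rik, which spans 157944 nt, measured 21.53 and 17.37 TPM, and Sox9 170.14 and 154.38 TPM. 9430024E24Rik was above its limb gene, at 16.54 and 16.08 TPM against 8.06 and 7.87 TPM for Lmx1b.

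Gm26735 was typed lincRNA, but 98.75% of its exon bases lie on exons of Sox4, a transcription factor gene of mesenchyme, on the other strand (chr13:28943048-28951671, plus strand). It measured 16.66 TPM in replicate 1 and 10.47 TPM in replicate 2, the widest difference of the 63 relative to the mean, beside 90.84 and 82.95 TPM for Sox4. The sources used here do not state whether strand was used in counting, and without strand the reads of Gm26735 and Sox4 cannot be told apart.

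Such overlap was frequent. Of the 63 genes 19 (30.2%) shared exon bases with a protein-coding gene, against 7.24% of the lincRNAs below the threshold. For 17 of them the coding gene with the largest overlap was on the other strand. For 7 genes (11.1%, against 1.92%) at least 50% of the exon bases lay on coding exons. Besides Gm26735 these were Gm26751 on Nynrin (100%), Gm26718 on Pgam5 (100%), Gm26699 on Luc7l2 (99.69%), Gm28592 on Phlda1 (98.11%), Gm26733 on Zfp26 (97.95%) and Gm5914 on Ctcf (72.55%). Each percent counts exon bases on any protein-coding gene, and the gene named holds the largest part. Gm5914 also overlaps the body of Agrp, on its own strand. Of these 7 only Gm26751 was above its partner on average, at 22.71 and 19.21 TPM against 15.61 and 18.43 TPM. The others stood between 7.58% (Gm5914) and 47.7% (Gm28592) of theirs. Together the 7 held 5.32% of the summed TPM of the 63.

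Another set of 5 genes shared at least 20% of their 100-base windows with genes elsewhere in the genome and held 27.3% of the summed TPM. Gm10076, Norad and Gm7292 are given above. Gm26825, at 17.39 and 17.28 TPM, shared 78.67% of its windows with Hspa8, a constitutive heat shock protein gene whose level was 2956.85 and 2813.73 TPM, and aligned to it over 1940 nt with 99.588% identity. Gm13166, at 24.48 and 20.27 TPM, shared 63.88% of its windows with the zinc finger gene Zfp993, which was only at 1.55 and 2.00 TPM. In the first case the partner was 166 times as high as the lincRNA, and in the second it was lower.

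**Figure D2:**
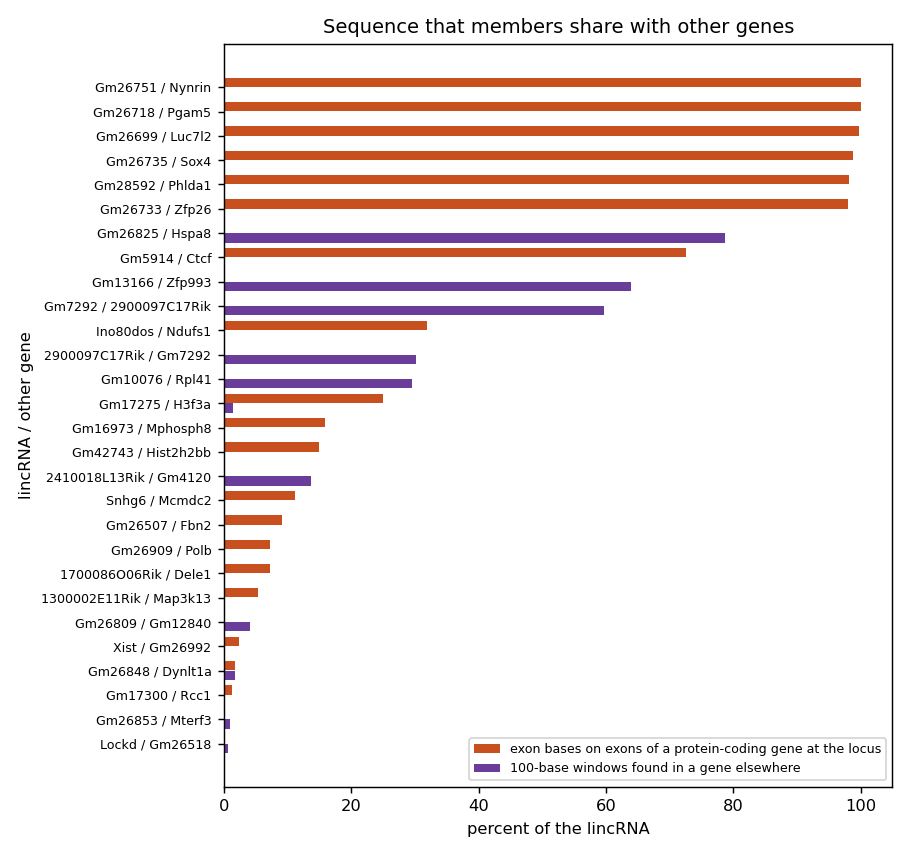
Share of each lincRNA, in percent, that lies on exons of a protein-coding gene at its own locus (orange, exon bases) or recurs letter for letter in a gene elsewhere (purple, 100-base windows), for the 28 genes with either. Gm26751 and Gm26718 lie entirely on coding exons, and Gm26825, at 78.67%, shares the largest part with genes elsewhere.

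No exon overlap with any gene and no window shared with one was found for 21 of the 63 genes. Their median level was 14.01 TPM, close to the 13.57 TPM of all 63 (medians of the 2-library mean), and they held 32.5% of the summed TPM. This set contains 1810058I24Rik, Cyrano, Gm26523, Gm14230, Epb41l4aos, 2700038G22Rik, 2610035D17Rik, 9430024E24Rik and Snhg18 among its higher members. It contains neither Hottip nor any X inactivation gene. Only exact windows were counted, so looser copies remain in the set. For example, Gm10479 aligned to the protein-coding gene 5730507C01Rik over 188 nt with 96.809% identity. Parts of 2700038G22Rik aligned to 317 genes elsewhere at 90% identity or more.

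The 63 genes lay close to protein-coding genes. Measured between gene bodies, the median distance was 379 nt, against 40885 nt for lincRNAs below the threshold. A protein-coding gene body was overlapped by 23 (36.5%, against 11.4%), 44 (69.8%, against 24.8%) had one within 5 kb, and 4 (6.35%, against 30.9%) had none within 100 kb. Counted between start sites instead, 21 had a protein-coding start within 5 kb (33.3%, against 13.2%). The 3 farthest were 2410018L13Rik at 768628 nt, Gm10479 at 653241 nt and Gm10076 at 209736 nt. These shares count genes, which are not replicates, and no test was made of them. Among the 44 genes with no coding exon overlap the median distance was 3775.5 nt.

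The 20 highest of the 63 included 3 more genes that show this range of settings. 5430416N02Rik, at 31.14 TPM in replicate 1 and 29.49 TPM in replicate 2, lies 4608 nt upstream of Sec31a, a gene of the coat of secretory vesicles. 1300002E11Rik, at 21.99 and 22.09 TPM, overlaps Map3k13, a kinase gene, on the same strand, with 5.388% of its exon bases on coding exons. 2410018L13Rik, at 20.92 and 19.16 TPM, is the gene farthest from any protein-coding gene, but aligned to 9030624G23Rik over 2255 nt with 94.324% identity. Each of these differed by less than 2 TPM between the pools. Gm10479, the next farthest, was much lower, at 6.14 and 8 TPM.

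By orientation, 18 of the 63 overlapped their neighbour on the opposite strand and 5 on the same strand. A further 12 diverged from it, 9 converged on it, 12 lay upstream in the same direction and 7 downstream in the same direction. Overlap on the opposite strand was 28.6% of the 63 against 9.6% of the lincRNAs below the threshold, and divergent pairs were 19% against 25.5%.

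**Figure D3:**
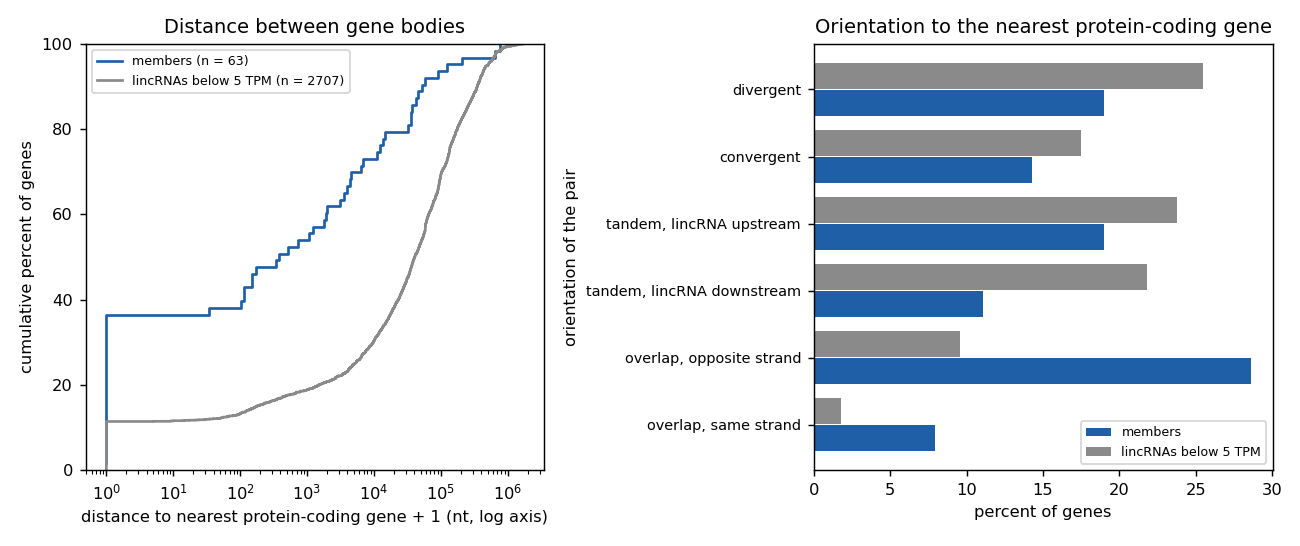
Left, cumulative percent of genes by distance from their nearest protein-coding gene in nt (plus 1, log axis) for the 63 genes (blue) and lincRNAs below 5 TPM (grey). Right, percent of each set by orientation of the pair. The blue curve starts at 36.5%, the share that overlaps a coding gene, and the grey curve at 11.4%.

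The neighbours were themselves often expressed. Of 62 neighbours with a value, 43 (69.4%) were at 5 TPM or more in both libraries, against 41.2% of the neighbours of lincRNAs below the threshold and 44.8% of all protein-coding genes. The median neighbour level was 18.34 TPM, against 1.94 TPM. Across the 62 pairs the levels of lincRNA and neighbour had a Spearman rho of -0.0068, and across the 44 genes without coding exon overlap 0.15. All points come from the same 2 libraries, and the values are a description. The lincRNA was the higher of the pair in 33 of 62.

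Head-to-head pairs, in which the lincRNA and a protein-coding gene start within 1 kb of each other and run apart, numbered 8. Another 3 genes (Gm26507 with Fbn2, Gm5914 with Ctcf and 1700086O06Rik with Dele1) had an opposite start within 1 kb but overlap the coding gene, and their mean levels were 8.28, 7.32 and 6.915 TPM. An opposite start within 1 kb was thus found for 11 of the 63 (17.5%), against 216 of the 2707 lincRNAs below the threshold (7.98%). In 4 of the 8 pairs the lincRNA was below its partner on average and in 4 above it. Gm14230 was at 28.17 and 29.28 TPM beside Tgif2, a homeobox repressor of TGF-beta signalling, at 79.10 and 73.80 TPM. 2010320M18Rik was at 14.28 and 13.48 TPM beside Pik3r2, a regulatory subunit of phosphoinositide 3-kinase, at 37.12 and 35.89 TPM. In neither pair did the libraries of the 2 genes overlap.

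The other lower members were 5031425E22Rik, with a mean of 11.485 TPM beside 26.55 TPM for Kmt2e, and 4930516B21Rik, with 7.50 TPM beside 37.125 TPM for Exog, which encodes a mitochondrial nuclease. Snhg18, at 15.38 and 12.64 TPM, overlapped in range with Sema5a, an axon guidance gene, at 13.06 and 14.48 TPM. AI480526, at 17.50 and 14.85 TPM, was above Setd1b, a histone H3 methyltransferase gene, at 8.89 and 9.61 TPM. The last were 5930412G12Rik, with a mean of 9.025 TPM beside 6.30 TPM for the WNT receptor gene Fzd10, and Gm16001, with 8.04 TPM beside 6.20 TPM for Ogfod2.

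Between the 2 annotated starts of 7 of these pairs lay under 200 nt. The bases between the starts could be read from the RefSeq promoter table (GRCm38.p6) for 5 of them, and they are shown on the strand of the lincRNA, which starts directly after the last base, to compare what the 2 genes share as upstream sequence. Capitals mark GGGCGG or its reverse complement CCGCCC, the core of the GC box.
Gm16001 and Ogfod2, chr5:124112265-124112296: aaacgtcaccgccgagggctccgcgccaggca
2010320M18Rik and Pik3r2, chr8:70776714-70776814: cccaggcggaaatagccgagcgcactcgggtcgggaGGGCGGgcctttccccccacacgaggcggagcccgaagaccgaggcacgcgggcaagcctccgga
4930516B21Rik and Exog, chr9:119444831-119444942: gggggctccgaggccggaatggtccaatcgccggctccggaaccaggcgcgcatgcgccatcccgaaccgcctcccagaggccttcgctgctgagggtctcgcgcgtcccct
Gm14230 and Tgif2, chr2:156839893-156840006: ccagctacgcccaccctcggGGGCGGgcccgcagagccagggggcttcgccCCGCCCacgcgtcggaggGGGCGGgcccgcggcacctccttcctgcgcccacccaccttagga
Snhg18 and Sema5a, chr15:32244663-32244809: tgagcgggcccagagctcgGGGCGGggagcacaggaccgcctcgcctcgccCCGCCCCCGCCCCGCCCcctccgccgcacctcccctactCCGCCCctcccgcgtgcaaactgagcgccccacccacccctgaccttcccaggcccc
A match was present in 3 of the 5, with 5 in the stretch of Snhg18 and Sema5a. Among all RefSeq promoters, 10.3% to 28.4% have a match in a stretch of these lengths directly before the start. All 5 stretches held more CG dinucleotides than the median of all promoters over the same length, from 5 against 1 for Gm16001 to 15 against 4 for Snhg18.

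Over the promoter window of 250 bases before to 50 bases after the start, 30 of the 63 genes had an entry in the RefSeq table, and 21 of these lay within 100 bases of the GENCODE start. In these 21 the median number of CG dinucleotides was 18, against 7 in all 32851 windows and 22 in windows of protein-coding genes above the threshold. On either strand GGGCGG was present in 13 (61.9%, against 35.7% and 65.5%), CCAAT in 13 (61.9%, against 37.4% and 38.7%) and TATAAA in 2 (9.52%, against 13.6% and 6.6%). In CG number and GC box share the 21 windows were thus nearer to those of expressed protein-coding genes than to all windows. Some of the 21 hold the start of such a gene, so the same bases can count in both sets. Examples are the windows of Snhg18 (Sema5a), 2010320M18Rik (Pik3r2) and Gm16001 (Ogfod2), with 31, 43 and 34 CG dinucleotides.

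The genes were intermediate in size. The median exonic length, taken as the union of exons in GENCODE M21, was 2291 nt, against 1155 nt for lincRNAs below the threshold and 4531 nt for protein-coding genes above it. By the leading deposited transcript the median of the 63 was 1195 nt. For 1 transcript per gene in M21, the medians of the 3 sets were 1375, 1001 and 2615 nt. Median genomic spans were 7949, 4488 and 23998 nt in the same order, and the median of the largest number of exons in a transcript was 3, 3 and 9. The longest by exons were Xist (17946 nt), Ftx (10205 nt) and 2810429I04Rik (8789 nt), and the shortest Gm29362 (133 nt), Gm10479 (241 nt) and Gm10076 (384 nt). Single-exon genes numbered 7 (11.1%), against 4.73% and 2.03%. A polyadenylation signal (AATAAA or ATTAAA on the transcript strand) stood in the last 40 nt of 33 transcripts (52.4%), against 37.3% and 74.4%.

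**Figure D4:**
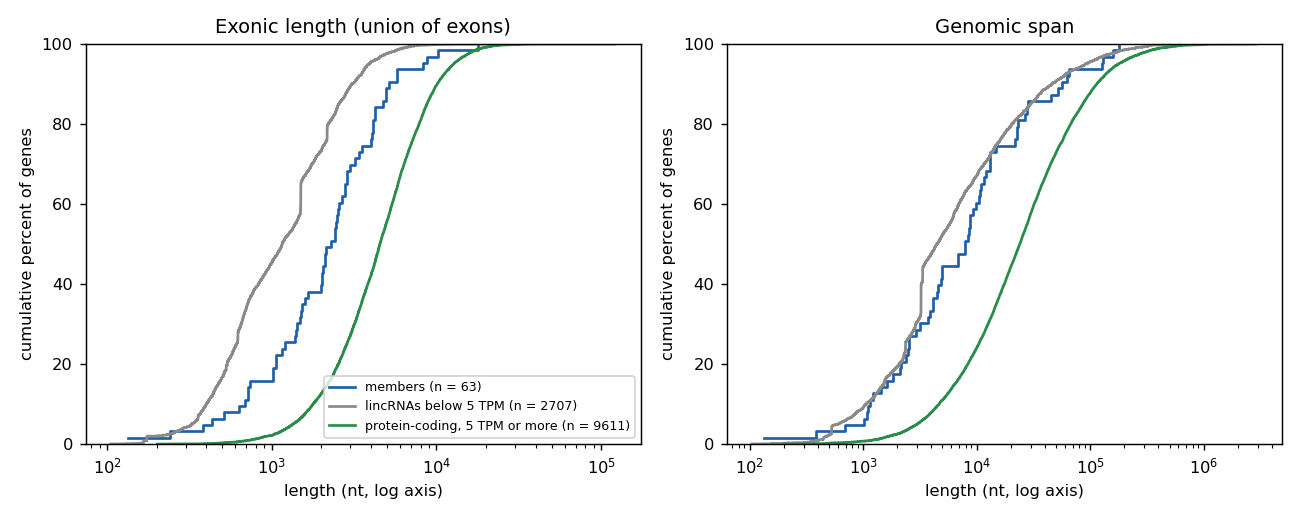
Cumulative percent of genes by exonic length (left) and by genomic span (right), in nt on log axes, for the 63 genes (blue), lincRNAs below 5 TPM (grey) and protein-coding genes of 5 TPM or more (green). The blue curve lies between the others at its median in both panels, at 2291 nt and 7949 nt.

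Open reading frames were short in most of the 63, with a median of 68 codons against 57 for the other lincRNAs and 409 for protein-coding genes. The exception was BC002059, at 7.44 and 5.88 TPM, with a longest frame of 410 codons. RefSeq entries matched 40 of the 63 genes, of which 34 were noncoding, 2 pseudogenes and 4 protein-coding. Of those 4 only 2 matched by symbol, and the entries for 4930516B21Rik (Acvr2b) and D930016D06Rik (Thoc2l) rest on a synonym and are uncertain. The matches by symbol were 1810058I24Rik and Tmem250-ps, at 30.84 and 34.71 TPM, with a longest frame of 170 codons. The other pseudogene was 4632415L05Rik at 16.85 and 15.52 TPM.

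Annotation release affects some lengths, and with them TPM. The deposited tables use GENCODE M4, where the leading transcript of Norad is 1149 nt long against 4915 nt in M21, and that of Lockd 441 nt against 5662 nt. What the TPM of these genes, and of Gm7292, would be with the longer forms was not analysed here.

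At the level of deposited transcripts, 30 of the 63 genes had a single one and 33 had 2 or more, up to 12 for 2810429I04Rik. The leading transcript was the same in both libraries for 32 of the 33, and 2610035D17Rik was the exception. Among the 33 its median share of the gene's TPM was 73.95% in replicate 1 and 74.76% in replicate 2, and it held at least 50% in both libraries for 24 genes. The leading transcript of 2810429I04Rik held only 23.82% and 21.03%, and that of Snhg6 36.79% and 36.02%. The largest shift between pools was that of BC002059, from 62.01% to 81.20%.

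Between the pools, 62 of the 63 genes had enough counts to test, 20 over both libraries, and Gm29362 did not. The exact binomial test on expected counts compares these 2 libraries and not conditions. None of the 62 passed both an adjusted p of 0.05 (Benjamini-Hochberg over all genes) and a log2 ratio of 1 in size, while 502 of all 16787 genes tested did (2.99%). At an unadjusted p under 0.05 stood 19 of the 62, against 38.8% of all genes. With no limit on the ratio 14 of the 62 passed the adjusted p (22.6%), against 29.3% of all genes. Of these 9 were higher in replicate 2 (14.1% of all genes were) and 5 lower (15.2%). The 2 sets are not alike, because the 63 were kept only at 5 TPM or more in both libraries. The other genes needed only 20 counts over both. Genes low in 1 pool were thus left out of the 63 beforehand. For that reason the shares here, and the median sizes of the ratio below, do not show that the 63 differ less between pools.

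The log2 ratios, replicate 2 over replicate 1, ran from -0.62 for Gm26735 to 0.42 for Gm10479, with a median size of 0.117 against 0.131 over all genes. Among the 14 the adjusted p was smallest for Xist (log2 ratio 0.31, exact binomial test, adjusted p = 4.03e-43), which had 8596 and 8576 expected counts. Next were Gm26735 (log2 ratio -0.62, exact binomial test, adjusted p = 8.2e-17) and Gm26523 (0.34, exact binomial test, adjusted p = 1.15e-11), while the ratio for Prrx1 around Gm26523 was 0.00. Norad and Gm7292, which share sequence, were both higher in replicate 2, at 0.35 and 0.20. For 2810429I04Rik the ratio of counts was 0.30, while its TPM was lower in replicate 2 (14.50 and 13.65 TPM). Its deposited gene length, an average over its transcripts, was 909 nt in replicate 1 and 1126 nt in replicate 2. With 1 pool a side, differences between embryos and between library preparations cannot be told apart.

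**Figure D5:**
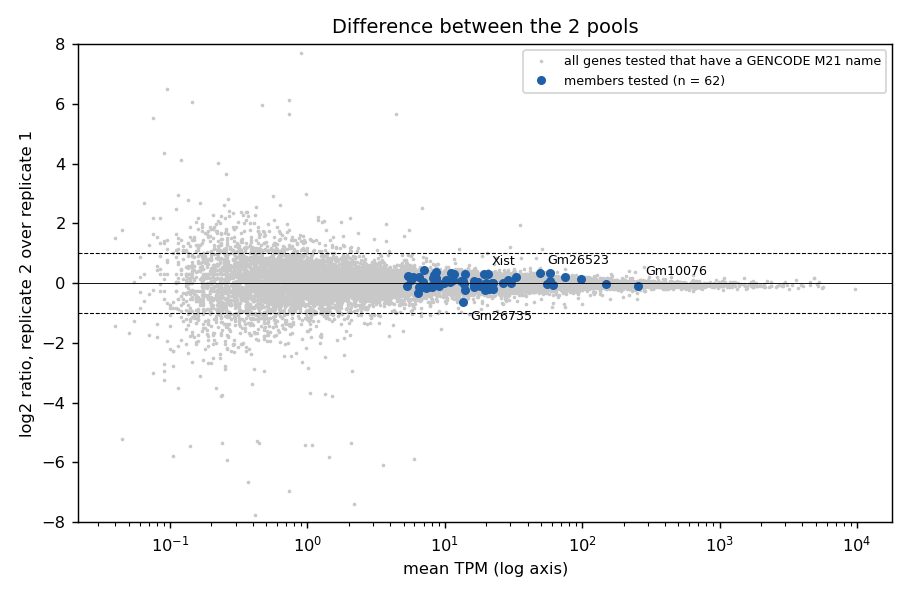
Log2 ratio of counts, replicate 2 over replicate 1, against mean TPM on a log axis, for all genes tested with a GENCODE M21 name (grey) and the 62 lincRNAs tested (blue). Dashed lines mark a log2 ratio of 1 in size, and all 62 blue points lie between them, from -0.62 (Gm26735) to 0.42 (Gm10479).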

How the data were processed

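Per the file headers, the authors quantified genes and transcripts from transcriptome alignments to mm10 with GENCODE M4. No source used here names the aligner, its version or whether strand was used. The authors deposited expected counts, TPM, posterior mean TPM with bounds (signal values whose level is not stated), and the percent of a gene's TPM in each transcript. TPM is scaled over all 69691 entries, of which 97 are spike-ins and 26248 have only a number (6.29e-05% and 4.85e-05% of counts in replicates 1 and 2). Both kinds stayed out of library sizes and tests.

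Types, coordinates and neighbours came from GENCODE M21 on GRCm38, the build of mm10, which matched 42462 of 43346 gene IDs. RefSeq matches used the symbol, or a synonym at the same place. Shared windows were exact matches of 100 bases between transcripts, and alignments used BLAST 2.17.0 (100 nt, 90% identity or more).

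Expected counts were rounded for the exact binomial test, with library sizes from edgeR 4.0.16 (TMM) and a prior count of 0.5. No quasi-likelihood contrast could be fitted with 1 group. On simulated data (16728 genes, replicate 2 over replicate 1) the test recovered 95.5% of 200 genes changed 4-fold and called 1 unchanged gene. The simulated counts held counting error only, with no variation between pools beyond the changed genes. The simulation therefore does not show how the test performs on pools that vary more. The labels do not say how the pools were prepared beyond naming them biological replicates, so p-values cover counting error only.

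The members, the gene lists and the tests were chosen with earlier results of these data known. Named are the 20 highest members, members on the list of known RNAs, small RNA hosts, members beside listed limb or Hox genes, head-to-head pairs, the 3 longest, shortest and farthest, and the 3 genes on each side of the threshold. Others, such as BC002059, were chosen after their values were seen. Repeat content and genes that could not be matched were not analysed here.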

Additional observations from a re-analysis of the deposited data

How the results depend on the processing

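With the threshold at 10 TPM 38 genes remained of the 63, and the number was 87 at 3 TPM, 62 by the posterior mean, 54 by the lower bound, 68 without spike-ins in the total, and 64 or 65 with replicate 2 or replicate 1 alone. The median level of 13.57 TPM became 15.76 TPM without spike-ins, where the TPM of each gene rises by a factor of 1.134 or 1.207. It was 12.64 to 13.14 TPM in the single libraries and 14.01 TPM over the 21 genes with no overlap or shared window, an alternative chosen after seeing the data. Between pools 0 genes passed with TMM, DESeq2 1.42.0 size factors, total counts or no filter on counts, 1 (Gm26735, log2 ratio -1.20) passed with spike-in counts as library size, which moves the median of all genes to -0.59, and 14 passed with no limit on the ratio. The 44 genes with a protein-coding gene within 5 kb became 21 by distance between starts and 38 with expressed neighbours only. The median distance of 379 nt became 4461 nt for genes with no exon overlap and 3775.5 nt for those with no coding exon overlap, the latter chosen after seeing the data. The median length of 2291 nt became 1195 nt both by the deposited length and by the leading transcript. Some of these differences follow from the definitions. Genes that share coding exons have a distance of 0, so leaving them out cannot lower the median distance. Leaving out spike-ins raises the TPM of every gene. Within 1 annotation release, a union of exons is at least as long as any transcript in it. Each subset also holds fewer genes. The cause of the other differences was not tested. No paired analysis was possible because the labels give 1 group. Depth limits mostly Gm29362, with 5 counts in each library.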
